A study of Mus musculus with 4 samples.

Results

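Nuclei of the photothrombotic brain lesion that carried transcripts of a Ranbp3l-led panel of leptomeningeal fibroblast genes were examined across both genotypes of the study. A lesional nucleus was taken as a member when it had 757 or more UMIs (unique molecular identifiers, each standing for 1 captured transcript), at most 1 UMI in all of 8 genes that mark other cells (Csf1r, Slc17a7, Gad2, Mog, Cd247, Aqp4, Flt1 and Ibsp), and 3 or more UMIs of a panel of 6 genes (Ranbp3l, Igfbp3, Ocln, Slc7a14, Trp53i11 and Prg4), with that sum above the sums of 3 other fibroblast panels. The rule gave 1731 members, 903 from the library labelled control and 828 from the library labelled Cxcl12-cKO, out of 23489 barcodes in the series and 16490 lesional nuclei at the UMI minimum. The same rule put 2203 nuclei in group A (Edar, Pappa, Col14a1, Eln and Matn4), 632 in group C (Dnajc5b, Vsx1, Slco4a1, Hs3st1, Bche, Afap1l1 and Cyp2f2) and 1002 in group D (Lama1, Dcdc2a, Slc7a11, Col4a6, Col13a1 and Kl).

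The brains were taken 21 days after a photothrombotic injury, in which a light-activated dye closes cortical vessels. Control mice are labelled WT. The other mice are labelled Col1a2(creER); Cxcl12(flox), a combination in which a Cre recombinase driven by the collagen gene Col1a2 acts in fibroblasts once tamoxifen is given; tamoxifen days and the age of these mice are not given in the labels. Each genotype was 1 library that pooled 1 female and 1 male mouse, with lesion and parenchyma nuclei mixed at 75% and 25% before capture, so no test between genotypes was possible and every difference below is between 2 libraries. In reporter mice of the study this Cre marked part of the resting fibroblasts.

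The leptomeninges are the arachnoid and the pia, the inner membranes around the brain. Their fibroblasts carry tight junctions, solute carriers and enzymes such as prostaglandin D synthase and retinaldehyde dehydrogenase, and the outer arachnoid cells form the barrier between the dura and the cerebrospinal fluid. Ranbp3l encodes a Ran-binding protein that exports SMAD proteins from the nucleus, Igfbp3 a binding protein of insulin-like growth factors, Ocln the tight-junction protein occludin, Slc7a14 a lysosomal amino acid transporter also made by neurons, and Prg4 the lubricating proteoglycan lubricin.

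Region was read from multiplexing oligonucleotide tags that were added to the nuclei before pooling. Their sequences are shown because they alone place the members in the lesion. Each is in lower case, 5′ to 3′, with no part singled out.
control, lesion: gttgatctataacag
control, parenchyma: gcaggaggtatcaat
Cxcl12-cKO, lesion: gaatcgtgattcttc
Cxcl12-cKO, parenchyma: acatggtcaacgctg
Control members had a median of 5286 UMIs of their lesion tag and 115 of the parenchyma tag of the same library. Cxcl12-cKO members had medians of 5256.5 and 133. The lesion tag took a median of 97.83% and 97.47% of the tag UMIs of a member, and no member had as many parenchyma as lesion tag UMIs. Barcodes had been assigned to regions by these tags, so this was set by the assignment. All lesional nuclei had medians of 97.84% and 97.55%.

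Members had a median of 2963 UMIs and 1708 genes in the control library and 3040.5 UMIs and 1710.5 genes in the Cxcl12-cKO library, with 3305742 and 3117194 UMIs in sum. By Xist and 4 Y-linked genes, 429 control and 350 Cxcl12-cKO members came from the female mouse and 279 and 293 from the male mouse. A further 88 and 85 members (9.75% and 10.3%) held UMIs of both sexes. The libraries shared 47 barcodes. Of these, 5 were control members and 2 were Cxcl12-cKO members, and none was a member in both. Levels below are in CPM, the UMIs of a gene per 1000000 UMIs summed over the same nuclei. Intervals are 95% intervals for counting error only. Those for gene levels treat UMIs as independent and do not cover the spread between nuclei, and none covers differences between mice.

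Ranbp3l carried most of the choice. At least 1 UMI of it was found in 90.03% (87.9 to 91.9%) of control and 89.6% (87.3 to 91.6%) of Cxcl12-cKO members, with a median of 5 and 6 UMIs per nucleus and at most 59 and 73. For comparison, 10.0% of 100 lesional neurons with 5 or more Slc17a7 UMIs in the control library and 3.92% of 51 in the other library held a Ranbp3l UMI, at median depths of 21222 and 19813 UMIs. Ranbp3l stood at 1954 CPM in control and 2240 CPM in Cxcl12-cKO members. In group D, whose panel holds the pial laminin gene Lama1, it stood at 581 and 483 CPM, and in groups A and C between 13.4 and 25.5 CPM. These values describe the choice of nuclei and were not tested.

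The other panel genes were sparser. Igfbp3 had a UMI in 17.6% and 10.1% of control and Cxcl12-cKO members, Ocln in 13.5% and 11.5%, Slc7a14 in 17.7% and 21.5%, Trp53i11, a p53-inducible gene, in 31.6% and 26.9%, and Prg4 in 14.6% and 17.6%. A nucleus with 1 UMI of a sparse panel gene needs others of the panel to be a member, so the overlap with Ranbp3l is largely set by the rule: 88.7% and 86.9% of those with Igfbp3 held it, 86.1% and 90.5% of those with Ocln, and 93.3% and 94.6% of those with Trp53i11. For Slc7a14 the shares were 71.9% and 77.5%, and for Prg4 71.2% and 64.4%.

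**Figure D1:**
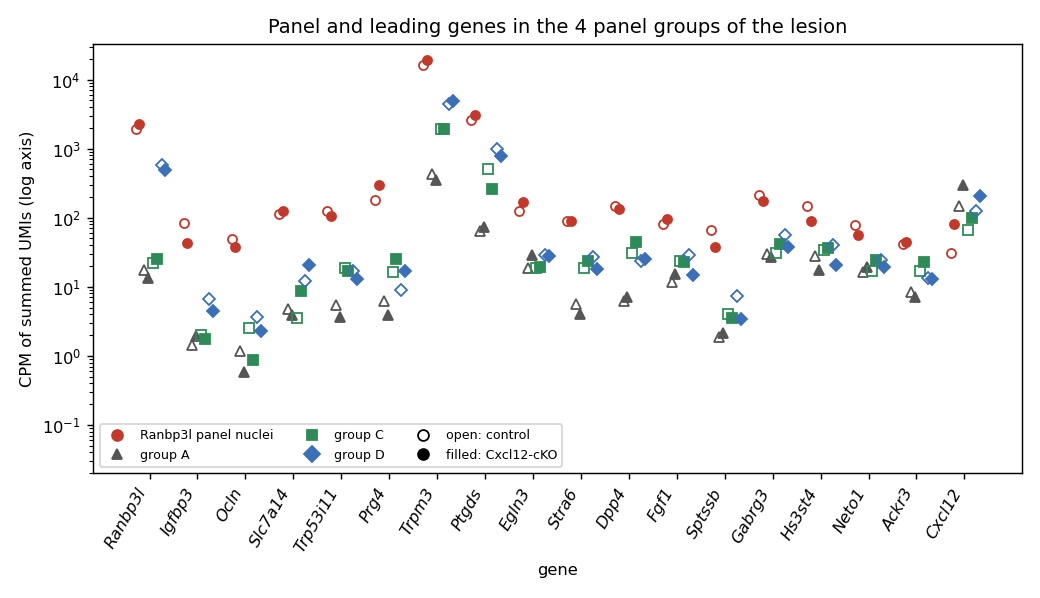
CPM of summed UMIs, on a log axis, of the 6 panel genes, 10 of the leading genes and the Cxcl12 and Ackr3 genes in members (red circles) and in groups A (grey triangles), C (green squares) and D (blue diamonds), with the control library open and the Cxcl12-cKO library filled. Each point is 1 library, and the members lie above groups A, C and D of the same library for every gene shown except Cxcl12, for which they lie below them.

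The panel gene with the most UMIs divided the members into unlike sets. Ranbp3l led in 737 control and 676 Cxcl12-cKO members, 81.6% of each library. Prg4 led in 48 and 62, Slc7a14 in 42 and 44, Igfbp3 in 24 and 10, Trp53i11 in 14 and 9 and Ocln in 4 and 6, while 34 and 21 members had a tie. The Slc7a14-led nuclei went against the label and carried neuronal genes. A list of 8 neuronal genes summed to 5560 and 5605 CPM in them, against 333 and 236 CPM in Ranbp3l-led nuclei, and 7753 and 8161 CPM in the Slc17a7 neurons. The 10 leptomeningeal genes outside the panel, Ptgds, Zic1, Zic4, Tbx18, Aldh1a2, Foxc1, Slc6a13, Slc13a4, Igfbp2 and Slc22a6, summed to 294 and 653 CPM in them and to 5071 and 5573 CPM in Ranbp3l-led nuclei. Ptgds alone gave 3266 and 3794 CPM of the sums in Ranbp3l-led nuclei, so this sum mostly follows 1 gene there. The Slc7a14-led nuclei were also deeper, with medians of 7929.5 and 6730 UMIs. They were 4.65% and 5.31% of the members, and values that rest on them are given below with Ranbp3l-led nuclei alone beside them.

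Prg4-led nuclei formed a fibroblast set with a lower sum of the leptomeningeal genes. The 10 leptomeningeal genes summed to 1799 and 1675 CPM there and a pan-fibroblast list, led by Bicc1, Col1a2 and Dcn, to 5667 and 5118 CPM, against 4317 and 3249 CPM in Ranbp3l-led nuclei. Ranbp3l itself was at 124 and 130 CPM. These nuclei came more often from the male mice. They were 7.17% (4.43 to 10.9%) of the members of the male control mouse and 13.0% (9.34 to 17.4%) of those of the male Cxcl12-cKO mouse, and 3.03% (1.62 to 5.13%) and 3.43% (1.78 to 5.91%) of those of the female mice.

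**Figure D2:**
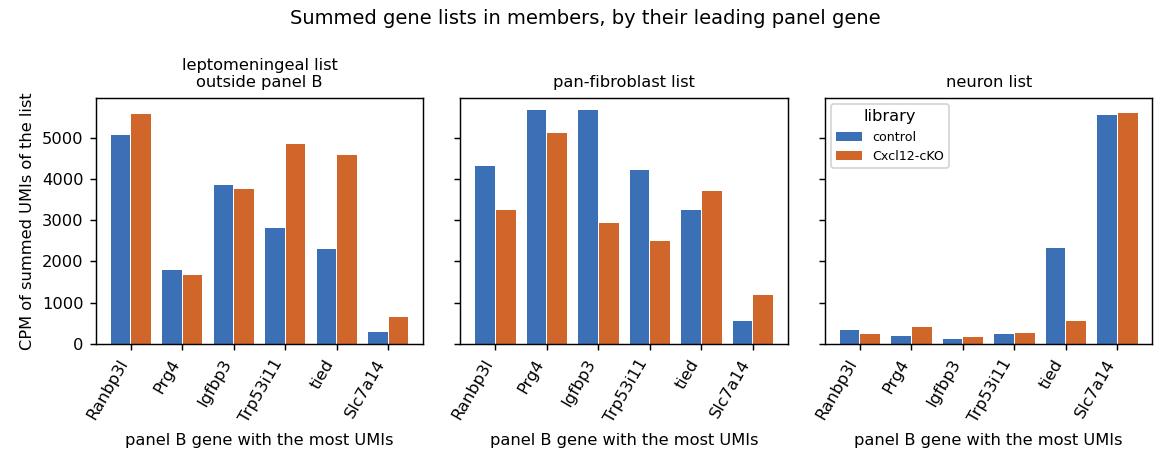
Summed CPM of the leptomeningeal list outside the panel (left), the pan-fibroblast list (middle) and the neuron list (right) in members grouped by the panel gene with the most UMIs, in the control (blue) and Cxcl12-cKO (orange) libraries; sets led by Ocln, with 4 and 6 nuclei, are left out. Slc7a14-led nuclei have neuron list sums of 5560 and 5605 CPM and the lowest sums of both fibroblast lists.

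The edge of the rule held more of this neuronal signal. In the 139 control and 124 Cxcl12-cKO members with exactly 3 panel UMIs, the neuron list summed to 2347 and 1179 CPM and the 10 leptomeningeal genes to 2460 and 2357 CPM. In the 160 and 148 nuclei just outside, with 2 panel UMIs, the sums were 3177 and 1978 CPM for neuronal and 1596 and 1736 CPM for leptomeningeal genes. A further 354 nuclei had 3 or more panel UMIs that were tied with or below another panel, and 265 met every condition except the limit on the 8 marker genes.

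Set against known layers of the meninges, the members stood highest for part of the arachnoid genes and for no dural one. Over all genes outside the panels with 50 or more UMIs in members, 11.9% were higher in members than in groups A, C and D of both libraries. Of 9 arachnoid barrier genes with 50 or more UMIs, 5 were: Tjp1, the zonula occludens scaffold (655 and 694 CPM in control and Cxcl12-cKO members), Cldn11, a claudin of arachnoid tight junctions (175 and 157 CPM), Cdh1, E-cadherin (77.7 and 83.7 CPM), Slc22a8, an organic anion transporter (141 and 178 CPM), and Dpp4, a membrane dipeptidase of barrier cells (146 and 133 CPM). Slc47a1 (347 and 279 CPM), Abcb1a (297 and 279 CPM), Cgnl1 (214 and 243 CPM) and the efflux pump gene Abcg2 (128 and 106 CPM) were not among them. Group C stood higher for Slc47a1 (1650 and 1193 CPM) and Abcb1a (397 and 337 CPM), and group D for Cgnl1 (264 and 258 CPM). In sum the arachnoid barrier list stood at 2186 and 2157 CPM in members, below group C at 3057 and 2557 CPM. None of 7 dural genes and none of 3 pial genes outside panel D with as many UMIs was highest in members. Of the 10 leptomeningeal genes, 3 were highest there, Ptgds, Slc13a4 and Foxc1. Slc6a13, a GABA and taurine transporter, was at 137 and 175 CPM in members and at 329 and 300 CPM in group D. The name leptomeningeal thus rests on part of its markers, and the lists were too short to read more from these counts.

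Genes that set the members apart from the other fibroblast groups were described without a test, since the groups were chosen on expression. Of 14139 genes outside the panels with 50 or more UMIs over the 4 groups, 71 (0.502%) were 2-fold or more higher in members than in each of groups A, C and D in each library. Trpm3, a heat-activated cation channel, stood at 16510 and 19439 CPM in control and Cxcl12-cKO members and at 4371 and 4965 CPM in group D, the next highest. Ptgds, prostaglandin D synthase and a carrier protein of cerebrospinal fluid, stood at 2616 and 3090 CPM, against 973 and 779 CPM in group D and 63.6 and 74.5 CPM in group A. Without Ranbp3l in the panel, which left 213 control and 194 Cxcl12-cKO members, the lowest ratio of Trpm3 was -0.12 and those of Aifm3, Rspo2, Gli1, Nsa2 and Nadk2 were also below 0. Each mouse showed these levels in members: Trpm3 was between 16076 and 22115 CPM and Ptgds between 2650 and 3203 CPM over the 4 mice.

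Other leading genes were less abundant but as marked. Sptssb, a subunit of the enzyme that starts sphingolipid synthesis, had the widest gap, 65.3 and 37.9 CPM in members and at most 7.29 CPM in any other group, with a lowest log2 ratio of 3.11. Egln3, a prolyl hydroxylase that marks hypoxia-inducible factor for decay, stood at 126 and 166 CPM with a lowest ratio of 2.09. Stra6, the receptor that takes up retinol, stood at 90.1 and 89.2 CPM (1.71), and Dpp4 at 1.58 on the same measure. Ligands were among them too: Fgf1, a fibroblast growth factor, at 82.0 and 97.2 CPM (1.51), and Rspo2, an enhancer of Wnt signals, at 54.8 and 83.1 CPM (1.61). Gli1, a transcription factor and target of hedgehog signals, stood at 39.6 and 24.7 CPM (1.41), and Ptgfr, the prostaglandin F receptor, at 47.8 and 53.6 CPM (1.29). Etnk2, Lmntd1, Aifm3, Rnf152, Nsa2, Gm5820, Pik3ap1 and Nadk2 completed this set, with lowest ratios from 1.19 to 2.05.

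Some leading genes did not keep their gap in Ranbp3l-led nuclei. Gabrg3, a GABA receptor subunit, had a lowest ratio of 1.93 in all members and of -0.39 in Ranbp3l-led nuclei alone. The same loss was seen for Khdrbs2 (1.35 and -1.23), Hs3st4 (1.26 and -0.91), Neto1, a glutamate receptor partner (1.18 and -0.64), Slc35f3 (1.68 and -0.30) and Zfp804a (2.12 and 0.25). Map2, a neuronal microtubule protein, was at 1.20 and 0.93. In Ranbp3l-led nuclei 72 of 13867 genes (0.519%) passed the same limit, 45 of them among the 71. Ackr3, described below, passed it there, at 1.04, and not in all members, at 0.95.

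Signalling and transport lists held some genes that were highest in members, against 11.9% of all genes. These were 5 of 22 guidance genes, 4 of 15 of the bone morphogenetic protein list, 3 of 15 of the Wnt list and 4 of 20 solute carriers. Other signalling lists held 2 of 17 for transforming growth factor-β, 3 of 18 for growth factors, 2 of 9 for insulin-like growth factors and 1 of 10 for retinoic acid. Of 7 neuronal genes 5 were highest in members as well, and these counts were not made in Ranbp3l-led nuclei alone. Nrp2, a semaphorin and VEGF co-receptor, was 2-fold or more higher than in groups A, C and D (482 and 438 CPM), and Sema3d, a secreted semaphorin, stood at 251 and 209 CPM with a lowest ratio of 0.86. Bmp6, a bone morphogenetic protein, stood at 1070 and 1133 CPM with a lowest ratio of 0.34, Wnt5a at 181 and 170 CPM with 0.52, and Slc6a20a, a proline transporter, at 902 and 1156 CPM with 0.37. In sum the solute carriers stood at 5884 and 6060 CPM in members, below groups A and C, and the guidance genes at 8764 and 8627 CPM, also below both. No gene of the fibrillar collagen list was highest in members. That list summed to 2870 and 1950 CPM in members, to 8048 and 6632 CPM in group A, to 3508 and 2999 CPM in group D and to 2318 and 1595 CPM in group C.

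Cxcl12, the gene targeted in the second genotype, encodes a chemokine that draws lymphocytes through the receptor Cxcr4 and is cleared by Ackr3. It was higher, not lower, in the library labelled Cxcl12-cKO. Members held 102 Cxcl12 UMIs in the control and 254 in the Cxcl12-cKO library, in 82 and 157 nuclei, which gave 30.9 and 81.5 CPM and a log2 ratio of 1.40 (1.06 to 1.75) that ranged from 1.14 to 1.93 over the other settings tried. Female and male control mice stood at 36.4 and 27.1 CPM, and female and male Cxcl12-cKO mice at 81.5 and 89.6 CPM. Both Cxcl12-cKO mice were above both control mice. The difference ran the same way in groups A (150 and 293 CPM), C (66.0 and 99.2 CPM) and D (126 and 206 CPM), and members had the lowest level of the 4 groups in both libraries. Which part of the gene was deleted was not stated, and counts near the 3′ end do not show whether an upstream exon is missing. The direction goes against the genotype label, so the groups are named below by their labels only.

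Ackr3, the scavenging receptor, was at 41.4 and 44.9 CPM (log2 ratio 0.12, -0.23 to 0.47) and above the other groups, which lay between 7.16 and 22.8 CPM. Its mice overlapped, at 37.8 and 55.2 CPM in the female and male control mice and 49.3 and 37.4 CPM in the Cxcl12-cKO mice. Cxcr4 had 1 and 2 UMIs in all members, too few to compare.

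The share of members among lesional nuclei was 10.9% (10.2 to 11.5%) in the control and 10.1% (9.49 to 10.8%) in the Cxcl12-cKO library, a log2 ratio of -0.098 (-0.24 to 0.039) that was not detectable beyond counting error. Among nuclei of groups A, C, D and the members together it was 32.0% (30.2 to 33.7%) and 30.2% (28.5 to 31.9%), with a ratio of -0.083 (-0.22 to 0.055). The mice went different ways. In the female mice the share of lesional nuclei was 12.4% and 10.3% (-0.27, -0.48 to -0.067), and in the male mice 10.0% and 11.5% (0.20, -0.045 to 0.44). With every nucleus thinned to 1500 UMIs, which left out 1191 control and 1172 Cxcl12-cKO nuclei, the shares were 8.09% and 7.97%.

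**Figure D3:**
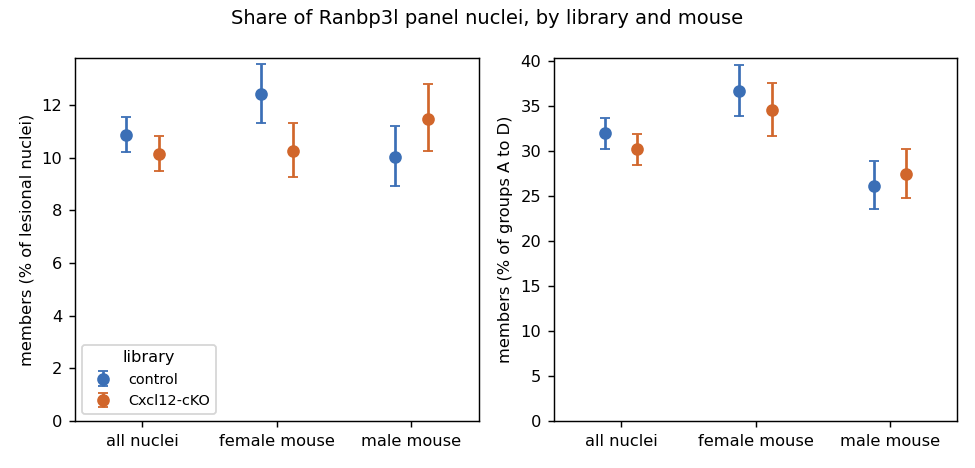
Members as a percent of lesional nuclei (left) and of the nuclei in groups A to D with the members as group B (right), for all nuclei and for the female and male mouse of the control (blue) and Cxcl12-cKO (orange) libraries, with exact 95% binomial intervals. The female share of lesional nuclei is 12.4% and 10.3%, and the male share 10.0% and 11.5%.

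Gene levels in members differed between the libraries for few genes by a wide margin. Of 10409 genes with 50 or more UMIs, 60 (0.576%) were 2-fold or more higher and 64 (0.615%) 2-fold or more lower under the Cxcl12-cKO label with the same direction in both pairs of mice of 1 sex. In 113 of these, both mice of one library lay beyond both of the other. The choice by fold and shared direction favours such a separation, so it is not independent support. The same holds for the genes named below from the highest and lowest ratios. The median over all genes was -0.01 on the log2 scale. By the looser measure of a counting interval on 1 side of 0 and 1 direction in both sexes, 6.97% of genes were higher and 8.19% lower, and these shares are the background for the lists below. Both Cxcl12-cKO mice lay above both control mice for 16.2% of genes and below for 20.3%.

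Receptor and enzyme genes were among the highest ratios. Chrm3, the M3 muscarinic acetylcholine receptor, was at 157 and 137 CPM in the female and male control mice and at 380 and 607 CPM in the Cxcl12-cKO mice, with a log2 ratio of 1.53 (1.39 to 1.67), and of 2.41 in Ranbp3l-led nuclei. It was found in 118 of 903 and 287 of 828 members. Both Cxcl12-cKO mice were above both control mice. The same direction was seen in groups A (209 and 319 CPM), C (199 and 2055 CPM) and D (54.7 and 142 CPM). Whether RNA of group C adds to the level in members was not tested.

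Adamts5, a protease that cuts the proteoglycan aggrecan, stood at 23.2 and 25.2 CPM in the female and male control mice and at 42.6 and 94.0 CPM in the Cxcl12-cKO mice (1.42, 1.03 to 1.83), although in Ranbp3l-led nuclei the ratio was 0.70. Adra1a, an adrenergic receptor, stood at 15.9 and 3.87 CPM and at 29.9 and 27.0 CPM (1.41, 0.84 to 2.04). Entpd1, the ectonucleotidase CD39, stood at 7.95 and 7.75 CPM and at 17.9 and 20.9 CPM (1.45, 0.84 to 2.12). In all 3 the mice of the libraries did not overlap. The remaining genes by the naming rule were Gm42047 (1.82), Cyyr1 (1.48), Sox2ot (1.47), Mcoln2, a lysosomal channel (1.30), and Sh3gl3, an endophilin (1.27). Sox2ot, a long noncoding RNA, was at -0.02 without the 10% of members with the most UMIs.

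Among the lowest ratios was a gene also made by bone-forming cells. Smpd3, a sphingomyelinase needed in bone mineralization, stood at 40.4 and 47.4 CPM in the female and male control mice and at 14.2 and 13.9 CPM in the Cxcl12-cKO mice, with a log2 ratio of -1.74 (-2.33 to -1.21), and of -2.92 in Ranbp3l-led nuclei. The mice of the libraries did not overlap. A list of 7 bone lineage genes was lower with it, at 58.7 CPM in control and 14.8 CPM in Cxcl12-cKO members, and Bglap, osteocalcin, had 57 UMIs against 1 (-5.18, -11.08 to -3.21), with near-identical copies that counting may split. The defining gene Ibsp, one of the 8 barred markers, was at 0. In members with no UMI of the bone or myeloid lists the Smpd3 ratio was 0.32.

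Id3, an inhibitor of differentiation and target of BMP signals, stood at 24.5 and 23.2 CPM in the female and male control mice and at 9.72 and 8.70 CPM in the Cxcl12-cKO mice (-1.37, -2.08 to -0.74), and at -1.59 in members free of bone and myeloid UMIs. Pde11a, a phosphodiesterase of cyclic nucleotides, stood at 57.6 and 49.4 CPM and at 16.4 and 27.0 CPM (-1.34, -1.75 to -0.96). Dapk2, a kinase of cell death and autophagy, stood at 21.9 and 40.7 CPM and at 11.2 and 4.35 CPM (-1.58, -2.27 to -0.97). The mice of the libraries did not overlap for any of these. Id3 was also lower under the Cxcl12-cKO label in groups A (29.2 and 19.9 CPM), C (41.0 and 18.4 CPM) and D (27.9 and 13.6 CPM). Mdfic2 (-1.52), Nwd2 (-1.42), Galnt9 (-1.26), Tafa1 (-1.24) and Sgsm1 (-1.23) were further genes of the naming rule. In Ranbp3l-led nuclei the ratio of Mdfic2 was -1.62, that of Nwd2 -0.96, that of Galnt9 -1.39 and that of Sgsm1 -1.02. Nwd2 was at 0.64 in members with at most 1 neuron list UMI and Sgsm1 at 0.29 without the deepest 10% of members, and 3 nuclei held 49 of 137 control UMIs of Nwd2 and 27 of 73 of Sgsm1. For Tafa1, 3 control nuclei held 370 of 609 UMIs, its mice overlapped, and the ratio was -0.06 in Ranbp3l-led nuclei.

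**Figure D4:**
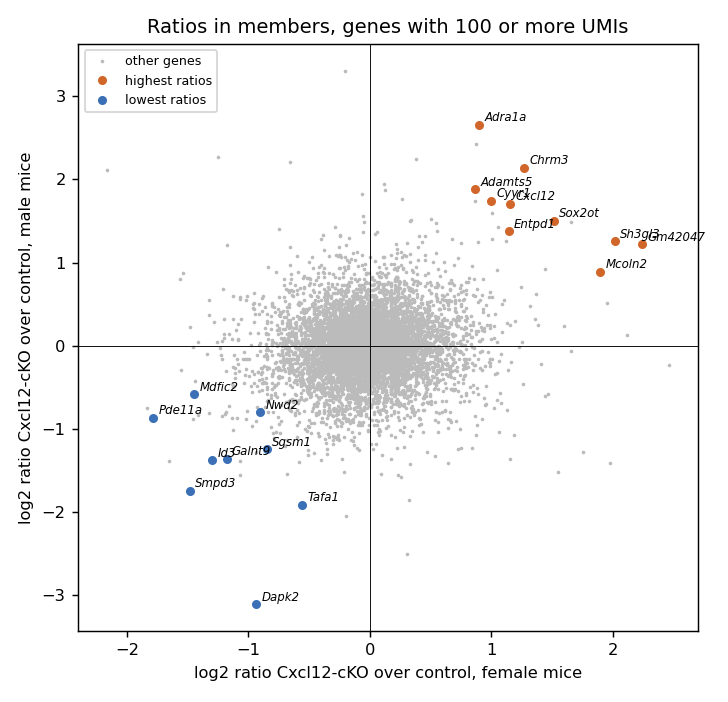
Log2 ratio of CPM in the Cxcl12-cKO over the control library in members of the female (x axis) and male (y axis) mice, for genes with 100 or more UMIs (grey), with the genes described in the text among the highest (orange) and lowest (blue) ratios named. Every named gene lies in the quadrants where both sexes have the same sign, which the naming rule required.

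Fibrillar collagens were lower under the Cxcl12-cKO label. Of 10 list genes with 50 or more UMIs, 6 were lower beyond counting error and 1 was higher, where 8.19% and 6.97% of all genes were, and the list median was -0.38 against -0.01 for all genes. Col1a2, a chain of type I collagen and the gene whose regulatory sequence drives the Cre, stood at 1086 and 1133 CPM in the female and male control mice and at 497 and 560 CPM in the Cxcl12-cKO mice (-1.04, -1.13 to -0.96). Col1a1, the other chain, stood at 452 and 484 CPM and at 237 and 291 CPM (-0.76, -0.89 to -0.64). Col11a1 was at -0.64 (-0.78 to -0.51) and Col24a1, with 45 and 5 UMIs, at -2.96 (-4.78 to -1.76). The mice did not overlap for any of these 4. Col5a1 went the other way (0.40, 0.13 to 0.67), and Col3a1 stood at 335 and 338 CPM (0.01, -0.11 to 0.14). The difference was not particular to members. Col1a2 was also lower in groups A (3205 and 2172 CPM), C (1027 and 583 CPM) and D (1273 and 748 CPM), as was the list sum in each of them. The bone list sum was lower under the same label. In the 653 control and 560 Cxcl12-cKO members with no UMI of the bone or myeloid lists, the ratios were -0.69 (-0.80 to -0.59) for Col1a2, -0.31 (-0.47 to -0.15) for Col1a1 and -0.54 (-0.72 to -0.36) for Col11a1.

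**Figure D5:**
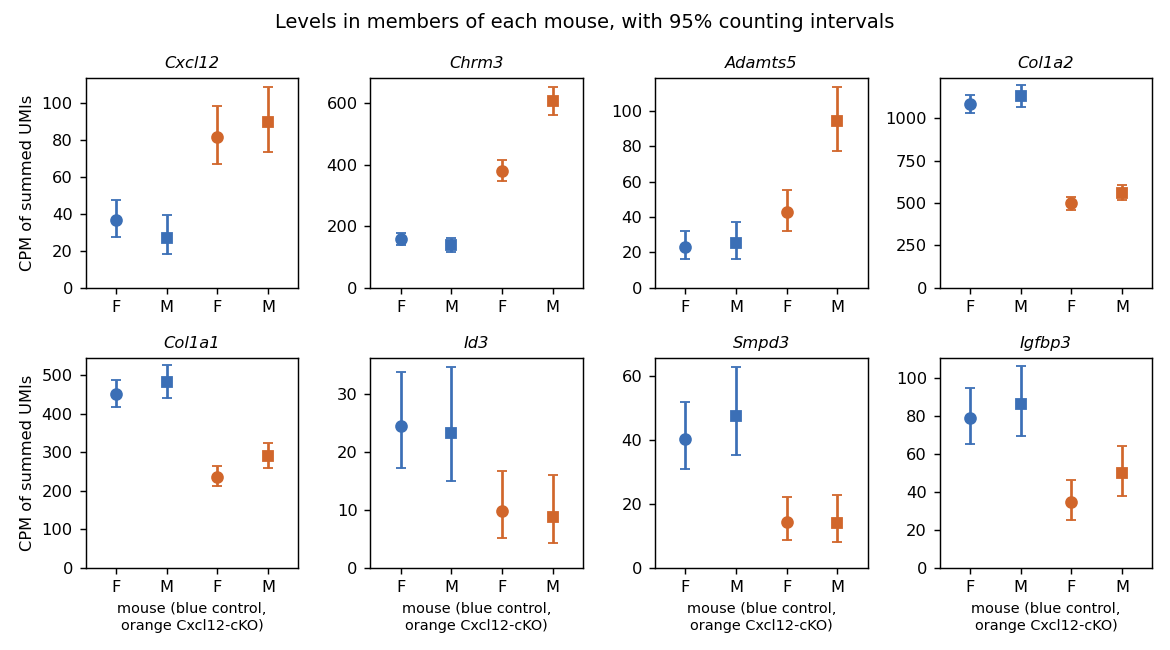
CPM of 8 genes in members of the female (F, circles) and male (M, squares) mouse of the control (blue) and Cxcl12-cKO (orange) libraries, with exact 95% Poisson intervals. Cxcl12, Chrm3 and Adamts5 are higher and Col1a2, Col1a1, Id3, Smpd3 and Igfbp3 lower in both Cxcl12-cKO mice, with Col1a2 at 1086 and 1133 against 497 and 560 CPM.

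The panel genes were used to choose the members, so their levels in them are a description only. Igfbp3 stood at 78.8 and 86.2 CPM in the female and male control mice and at 34.4 and 49.6 CPM in the Cxcl12-cKO mice (-0.97, -1.28 to -0.66). Prg4 had a ratio of 0.70 (0.55 to 0.85), and of 0.14 in Ranbp3l-led nuclei. Its levels differed more between the single mice of each library, with 84.1 and 97.2 CPM in the female control and Cxcl12-cKO mice and 296 and 567 CPM in the male mice. In each library 3 nuclei held 182 of 599 control and 265 of 918 Cxcl12-cKO UMIs. Ranbp3l stood at 2220 and 1772 CPM and at 2655 and 1716 CPM (0.20, 0.15 to 0.25), and its mice overlapped. In the insulin-like growth factor list, Igfbp5 (879 and 700 CPM, -0.33, -0.41 to -0.25) and Igfbp7 (116 and 91.1 CPM, -0.35, -0.58 to -0.13) were also lower in both Cxcl12-cKO mice than in both control mice, while Igf1, a ligand, was at 0.01 (-0.18 to 0.20) and the receptor gene Igf1r at 0.04 (-0.08 to 0.17).

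Interferon-γ is a T cell cytokine whose response was a readout of the study. Of 42 response genes, 25 had 50 or more UMIs in members, and their median log2 ratio was -0.23. It was -0.29 between the female mice and -0.10 between the male mice. Of these, 8 were lower beyond counting error and 0 were higher, where 8.19% and 6.97% of all genes were. Stat2, a signal transducer of interferon receptors, stood at 141 and 82.3 CPM in the female and male control mice and at 91.2 and 60.9 CPM in the Cxcl12-cKO mice (-0.49, -0.73 to -0.26). The interferon-inducible GTPase gene Iigp1 was at -0.50 (-0.81 to -0.21) and Gbp4, another, at -0.95 (-1.62 to -0.33), and the class I antigen presentation genes H2-K1 at -0.32 (-0.62 to -0.02) and B2m at -0.35 (-0.65 to -0.05). Both Cxcl12-cKO mice were below both control mice for 2 of the 25 genes, Gbp4 and Tapbp, where 20.3% of all genes were, and the mice of the other 23 overlapped. Irf1 (0.11), Irf9 (0.16), Cd74 (0.08) and Gbp9 (0.05) were the 4 above 0, each within counting error. The sum of the 42 genes was also lower under the Cxcl12-cKO label in groups A (1124 and 1057 CPM), C (1428 and 1152 CPM) and D (1437 and 1270 CPM).

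Genes that the study linked to contact with lymphocytes were chosen there on related samples and are not independent evidence of a direction. Of 16, 8 had 50 or more UMIs, and 3 were higher beyond counting error and 0 lower, where 6.97% and 8.19% of all genes were. These were Cxcl12, Cd80, a ligand of T cell costimulation, at 67.6 and 93.9 CPM in the female and male control mice and 108 and 163 CPM in the Cxcl12-cKO mice (0.78, 0.55 to 1.01), and Il33, an alarmin (0.34, 0.01 to 0.68). Myeloid genes were higher under the same label: a list of 12 summed to 124 and 210 CPM, with Gpnmb, a macrophage glycoprotein, at 31.2 and 71.5 CPM and Ptprc, the leukocyte gene for CD45, at 18.5 and 43.3 CPM. Without the members that held bone or myeloid UMIs the ratio was 0.79 (0.50 to 1.09) for Cd80 and 1.65 (1.23 to 2.10) for Cxcl12. For Il33 it was 0.72 (0.28 to 1.17) there. In Ranbp3l-led nuclei the ratio was 0.55 for Cd80, 1.22 for Cxcl12 and 0.06 for Il33, and the mice of Il33 overlapped.

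In the Wnt list 5 of 15 genes were higher and 2 lower beyond counting error, where 6.97% and 8.19% of all genes were. Ror1, a receptor of Wnt5a, stood at 1459 and 1289 CPM in the female and male control mice and at 1811 and 1846 CPM in the Cxcl12-cKO mice (0.39, 0.34 to 0.45), with no overlap. Rspo2 was at 0.60 (0.32 to 0.88), Sfrp4, a secreted Wnt modulator, at 0.43 (0.25 to 0.61), Rspo3 at -0.62, Notum, an enzyme that inactivates Wnt proteins, at -1.01 (-1.92 to -0.19) from 39 and 18 UMIs, and Wnt5a at -0.09 (-0.27 to 0.08). The mice of Rspo2 overlapped, and 3 nuclei held 73 of its 259 Cxcl12-cKO UMIs, while its ratio in Ranbp3l-led nuclei was 0.74. For retinoic acid, 3 of 10 genes were higher and 0 lower: Rdh10, which makes retinaldehyde (0.62, 0.35 to 0.90), Dhrs3, which reverses that step (0.42, 0.17 to 0.67), and the receptor Rarb (0.21, 0.10 to 0.32), whereas Aldh1a2, which makes retinoic acid, was at 0.04 (-0.12 to 0.20).

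Of 17 transforming growth factor-β genes with 50 or more UMIs, 2 were higher and 1 lower beyond counting error. Of all genes 6.97% were higher and 8.19% lower by that measure, which is also the background for the lists that follow here. Smad3, a signal transducer, stood at 257 and 268 CPM in the female and male control mice and at 401 and 376 CPM in the Cxcl12-cKO mice (0.55, 0.42 to 0.68). Ltbp2, a latent growth factor binding protein, stood at 45.0 and 46.5 CPM and at 93.4 and 87.9 CPM (0.93, 0.65 to 1.22). Neither overlapped between the libraries, and the receptors Tgfbr1 (0.08) and Tgfbr2 (0.05) were within counting error. Among 22 solute carriers with as many UMIs 4 were higher and 4 lower, among them Slc1a3, a glutamate transporter (0.53, 0.45 to 0.61), and Slc4a10, a bicarbonate transporter (-0.21, -0.28 to -0.15). Of 15 such genes of the bone morphogenetic protein list, 1 was higher, Bmp7 (0.26, 0.06 to 0.46), and 3 lower, Id3, Bmpr1b (-0.91, -1.53 to -0.33) and Bmpr2 (-0.15, -0.29 to -0.01).

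Barrier features themselves showed small differences. Ptgds stood at 2784 and 2650 CPM in the female and male control mice and at 3203 and 3195 CPM in the Cxcl12-cKO mice (0.24, 0.20 to 0.28), with no overlap. The tight-junction scaffold gene Tjp1 (0.08, with an interval that reached 0) and the barrier transporter gene Slc22a8 (0.34, 0.16 to 0.52) were above 0, Abcg2 (-0.28, -0.49 to -0.07) and the endothelial cadherin gene Cdh5 (-0.25, -0.47 to -0.04) below it. The arachnoid barrier list had a median of -0.09. In it 2 of 9 genes were higher and 2 lower beyond counting error, where 6.97% and 8.19% of all genes were. Of 9 prostaglandin genes, Hpgd, the enzyme that inactivates prostaglandins, was the 1 lower gene (19.7 and 4.49 CPM, -2.09, -3.08 to -1.28) and Ptgds the 1 higher gene.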

How the data were processed

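Single-nucleus RNA of lesion and parenchyma was measured in 1 library for each of 2 genotypes. The authors ran Cell Ranger 9.0.0 on GRCm39, per the labels, assigned barcodes to regions by tags and deposited filtered matrices of whole-number UMI counts for 33696 genes, with no normalization; whether intronic reads were counted was not stated. Unused columns numbered 0. Coordinates are left out because the annotation supplied was for a different assembly.

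Members, lists and naming rules were chosen with earlier results of these data known. The UMI minimum was the 2.5th percentile of all barcodes, and no doublet caller was run. Counts were summed over members in each library and mouse and scaled to CPM, with 0.5 added to each sum in ratios. Intervals were exact (Clopper-Pearson, Poisson or conditional binomial). Between libraries, genes with 50 or more UMIs in members were compared, without sex-linked and mitochondrial genes. For members over groups A, C and D the 50 UMIs were summed over the 4 groups. Panel and barred genes were left out there, and sex-linked and mitochondrial genes were kept. Named genes were the panel, Cxcl12, Cxcr4 and Ackr3; the 25 with the largest lowest ratio over groups A, C and D (200 or more UMIs); the 10 highest and 10 lowest ratios between libraries (100 or more UMIs, same direction in both sexes); and the most abundant genes of 37 lists. Other genes of those lists were named after their values were seen, and some genes that these rules name are not reported here. The counts of 2-fold genes were also run on simulated Poisson counts with planted changes. These had no spread between mice or libraries, so they cannot show how often such differences alone give 2-fold genes. Python 3.11.15, numpy 2.4.6, pandas 2.3.3, scipy 1.17.1 and matplotlib 3.10.9 were used. Samples were grouped by the genotype label.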

Additional observations from a re-analysis of the deposited data

Results flagged for a closer look

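The effects given here had opposite signs in the female and the male pair of mice. Those looked at were the shares, the panel genes, Cxcl12 and Ackr3 where 50 or more UMIs were found, and lists of 10 or more genes with both medians at least 0.1 from 0. There was 1 mouse of each sex and genotype, so the differences between the sexes were not tested. The log2 ratio of the member share of lesional nuclei, Cxcl12-cKO over control, was -0.27 between females and 0.20 between males, and that of the share among panel-assigned nuclei was -0.086 and 0.073. Within members, Ranbp3l had log2 ratios of 0.26 between females and -0.046 between males, Ocln of -0.63 and 0.15, and Ackr3 of 0.38 and -0.56. Among these lists, the proteoglycan and hyaluronan list had medians of -0.23 and 0.18, the list of matrix proteases and their inhibitors -0.20 and 0.23, and the type I interferon-stimulated list -0.42 and 0.20.

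The parenchyma of the same brains, which entered no comparison above, held 102 nuclei in the control and 97 in the Cxcl12-cKO library that met the same rule. They had medians of 13356 and 15044 UMIs, a neuron list sum of 5341 and 6028 CPM, and 454 and 295 CPM of the 10 leptomeningeal genes outside the panel.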

How the results depend on the processing

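No paired analysis was possible because each group has 1 library. Of the shares, the Cxcl12 ratio, the counts of genes and the interferon-γ median under other settings, 94 values kept to a limit and 17 did not. The limit was the counting interval for the shares and the Cxcl12 ratio, and 1.5 times for counts. For the interferon-γ median it was a distance from the main value, set by the width of the counting interval of the summed list. Several settings (Ranbp3l-led members alone, members with at most 1 neuron list UMI, members with no bone or myeloid UMI, and thinning) were chosen after seeing the data. The cause of a change was not tested.

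In the female mice alone the log2 ratio of the share of lesional nuclei was -0.27, and in the male mice 0.20, where the share of panel-assigned nuclei was 0.073, the interferon-γ median, over genes with 50 or more UMIs in those nuclei, -0.12 and the count of genes 2-fold over the other groups 194. The interferon-γ median was -0.30 with no UMI of the 8 barred genes, -0.31 with nuclei weighted alike and -0.32 in Ranbp3l-led nuclei. The 2-fold higher genes numbered 36 without nuclei of both sexes and 38 without the deepest 10% of members. With 20 or more UMIs 193 genes were higher and 221 lower, and with 200 or more UMIs 8 and 15, with 42 genes over the other groups. Without Ranbp3l in the panel the Cxcl12 ratio was 1.93 and the genes over the other groups numbered 508.

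Among named genes whose ratio lay beyond counting error, these changed sign. Between libraries, in the male mice Ranbp3l was at -0.046 and Ocln at 0.15. Tafa1 was at 0.23 with no UMI of the barred genes, at 0.24 without the deepest 10% and at 0.27 with at most 1 neuron list UMI, where Nwd2 was at 0.64. Without the deepest 10% Sox2ot was at -0.022 and Sgsm1 at 0.29. Smpd3 was at 0.32 with no bone or myeloid UMI, and Smpd3 and Dapk2 at 0.17 without Ranbp3l in the panel. Over groups A, C and D, the lowest ratio of Khdrbs2 was -0.0076 in the female mice. Without the deepest 10% of members, in Ranbp3l-led nuclei and with at most 1 neuron list UMI, in that order, Gabrg3 was at -0.71, -0.39 and -0.98, Slc35f3 at -0.54, -0.30 and -0.81, Khdrbs2 at -1.02, -1.23 and -1.15, Hs3st4 at -1.24, -0.91 and -1.19, and Neto1 at -0.35, -0.64 and -0.56. Zfp804a was at -0.41 with at most 1 neuron list UMI. Without Ranbp3l in the panel Trpm3 was at -0.12, Aifm3 at -0.060, Rspo2 at -0.82, Gli1 at -0.44, Nsa2 at -0.29 and Nadk2 at -0.62.

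With 1 library per genotype, differences between libraries cannot be told apart from differences between genotypes. Genes under 50 UMIs were not compared.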

Other observations

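Complement and growth factor genes outside the groups above gave some of the wider ratios in members. C3, the central complement protein, had a log2 ratio of 2.16 (1.24 to 3.30), from 3.33 and 15.4 CPM, and Fgf7, a fibroblast growth factor that acts on epithelia, of 1.45 (0.78 to 2.19), from 7.56 and 20.9 CPM. Both genes were higher in both Cxcl12-cKO mice than in both control mice. They were named after their values had been seen. Of the complement list 1 of 9 genes was higher and 2 lower beyond counting error, and of the growth factor list 3 of 18 were higher and 2 lower. Of all genes 6.97% were higher and 8.19% lower by that measure.

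Among 22 transcription factors of meningeal fibroblasts 3 were higher and 4 lower beyond counting error, where 6.97% and 8.19% of all genes were. Runx2, a master factor of osteoblasts that meningeal fibroblasts also make, stood at 428 and 393 CPM in the female and male control mice and at 238 and 328 CPM in the Cxcl12-cKO mice (-0.52, -0.64 to -0.39), and its ratio was -0.32 (-0.48 to -0.15) in members with no bone or myeloid UMI, while Foxc1, a factor of meningeal development, was at 0.05 (-0.16 to 0.26) and Zic4 at 0.02 (-0.09 to 0.14).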
